A study of Mus musculus with 2 samples.

Results

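The vomeronasal type 1 receptor genes (Vmn1r) were examined in a map of promoter contacts that keeps the parental alleles of a hybrid mouse cell apart. The members were every gene named Vmn1r and a number on chromosomes 1 to 19 of the RefSeq annotation of GRCm38, which gave 231 genes on 7 chromosomes, 230 of them protein-coding and 1, Vmn1r261, a pseudogene. Of these, 127 genes overlapped an analysed window of 50 kb and 104 did not. Genes with the same window were counted as 1 locus, which left 99 loci of 1 window each among 43941 windows in all. A single gene made up 74 loci, 22 loci held 2 genes and 3 loci held 3.

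Contacts were measured by Promoter Capture Hi-C, in which crosslinked chromatin is cut with HindIII, religated inside the nucleus and enriched with RNA baits for ligation products that carry a promoter. The cells were F121-6, a female hybrid mouse embryonic stem (ES) cell line with 1 chromosome set from strain 129 and 1 from Mus castaneus (Cas), grown with LIF and serum on mouse embryonic fibroblasts inactivated with mitomycin C. There was 1 group of 2 samples, labelled replicates 1 and 2. The table gives 1 value per allele for both samples together, so no spread between replicates could be computed, and the comparison throughout is the 129 allele against the Cas allele within the same cells. Contact data hold no expression level, so the ES cell identity was not checked against marker genes, and the part that chromatin of the feeder cells had in the counts was not tested.

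Vmn1r genes encode receptors of the G protein-coupled kind that sit on the sensory neurons of the apical layer of the vomeronasal organ, where they detect pheromones and other small molecules, among them sulphated steroids. Each of these neurons is known to express 1 receptor gene from 1 allele, and the receptor signals through the G protein subunit Gnai2 and the channel Trpc2. The genes lie in tandem clusters that have grown by duplication and differ between mouse strains. ES cells are not sensory neurons, so the values below describe the clusters outside the tissue in which the receptors are known to work.

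The alleles differed most in a few receptor loci of chromosome 7, and the start sequences of the genes concerned show how alike neighbouring receptors are. The stretch of 250 bases before to 50 bases after the annotated start is given from RefSeq on GRCm38.p6, from 5′ to 3′ on the strand of the gene. The first set is Vmn1r59, with the strongest skew towards Cas, its neighbour Vmn1r60, and Vmn1r61, with the strongest skew towards 129; all are on the minus strand, at chr7:5454710-5455009, chr7:5545050-5545349 and chr7:5611264-5611563, and capitals mark the start codon.
Vmn1r59: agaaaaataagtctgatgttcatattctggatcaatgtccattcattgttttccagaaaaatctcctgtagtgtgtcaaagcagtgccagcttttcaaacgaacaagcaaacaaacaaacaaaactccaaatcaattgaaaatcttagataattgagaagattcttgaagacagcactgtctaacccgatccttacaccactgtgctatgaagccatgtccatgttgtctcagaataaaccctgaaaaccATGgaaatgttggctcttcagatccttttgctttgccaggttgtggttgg
Vmn1r60: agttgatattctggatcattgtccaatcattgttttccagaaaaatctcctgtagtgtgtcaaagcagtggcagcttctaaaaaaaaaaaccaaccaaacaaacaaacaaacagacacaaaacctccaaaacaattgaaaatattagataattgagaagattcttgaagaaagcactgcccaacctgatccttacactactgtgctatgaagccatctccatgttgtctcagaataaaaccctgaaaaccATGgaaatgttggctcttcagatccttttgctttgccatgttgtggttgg
Vmn1r61: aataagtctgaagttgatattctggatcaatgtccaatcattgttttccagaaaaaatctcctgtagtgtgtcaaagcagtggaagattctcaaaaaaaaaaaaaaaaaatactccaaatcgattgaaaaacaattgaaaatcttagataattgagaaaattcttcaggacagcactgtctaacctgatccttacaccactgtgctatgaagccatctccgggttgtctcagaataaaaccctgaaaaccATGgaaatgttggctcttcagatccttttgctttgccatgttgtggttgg
In a global alignment Vmn1r59 and Vmn1r61 shared 269 of 300 bases (89.67%), Vmn1r59 and Vmn1r60 shared 267 (89.0%), and Vmn1r60 and Vmn1r61 shared 264 (88.0%). The second set is Vmn1r173, the other locus with a called skew, and its closest relative Vmn1r174 in the next window, both on the plus strand, at chr7:23702092-23702391 and chr7:23753661-23753960. Capitals here mark the bases that differ between them.
Vmn1r173: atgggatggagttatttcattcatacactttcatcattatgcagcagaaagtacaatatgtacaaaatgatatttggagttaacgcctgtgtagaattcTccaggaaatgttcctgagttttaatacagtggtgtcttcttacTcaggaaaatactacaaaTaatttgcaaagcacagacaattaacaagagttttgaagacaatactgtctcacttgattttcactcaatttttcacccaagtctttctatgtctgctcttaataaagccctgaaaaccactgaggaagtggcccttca
Vmn1r174: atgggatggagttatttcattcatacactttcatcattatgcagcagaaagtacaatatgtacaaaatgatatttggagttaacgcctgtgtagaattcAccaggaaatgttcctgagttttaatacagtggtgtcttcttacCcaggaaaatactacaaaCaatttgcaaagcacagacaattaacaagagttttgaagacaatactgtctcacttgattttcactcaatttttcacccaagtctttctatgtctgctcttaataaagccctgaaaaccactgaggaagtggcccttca
Counted from 1 at the 5′ end, with the base of Vmn1r173 first, the differences were T100A, T144C and T162C, so 297 of 300 bases (99.0%) were the same. These are reference sequences, and the sequences of the 129 and Cas alleles themselves were not analysed here.

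The genes without an analysed window were concentrated in the largest cluster of the family. They made up 45.0% of the family, against 23.2% of Vmn2r genes (29 of 125), 24.2% of olfactory receptor (Olfr) genes (269 of 1111) and 9.71% of coding genes outside the Vmn1r family (1984 of 20435). They lay in 14 stretches without a window of the table, and 82 of the 104 were in 3 of them. On chromosome 7, Vmn1r91 to Vmn1r121 (27 genes) lay in the stretch from 20050001 to 21100000 and Vmn1r123 to Vmn1r166 (42 genes) in the stretch from 21150001 to 23300000. On chromosome 13, Vmn1r211 to Vmn1r223 (13 genes) lay between 22850001 and 23600000. A further 4 genes lay in the first stretches of chromosomes 4 and 7, Vmn1r2 and Vmn1r3 on chromosome 4 and Vmn1r186 and Vmn1r187 on chromosome 7.

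Over the whole family, genes without a window had closer copies at their starts, a difference seen in 1 large cluster and not in the 3 others that hold both kinds. A start sequence was matched for 205 of the 231 genes. The closest Vmn1r relative had a median identity of 100% over the 96 genes without a window (73 of them at 95% or more) and of 78.0% over the 109 genes with one (14 at 95% or more). The cluster of Vmn1r91 to Vmn1r183 held 70 of the 96 genes, and there the median was 100% without a window and 85.0% in the 13 genes with one. In the chromosome 13 cluster it was 79.7% in 21 genes without a window and 79.3% in 11 with one, a difference of under 1 point. In the other clusters with both kinds the order was the reverse, with 79.3% in 3 genes without a window and 82.0% in 21 with one for Vmn1r4 to Vmn1r31, and 79.0% in 2 without and 89.0% in 7 with one for Vmn1r55 to Vmn1r65. The part of sequence identity in which windows the table holds was not tested.

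**Figure D1:**
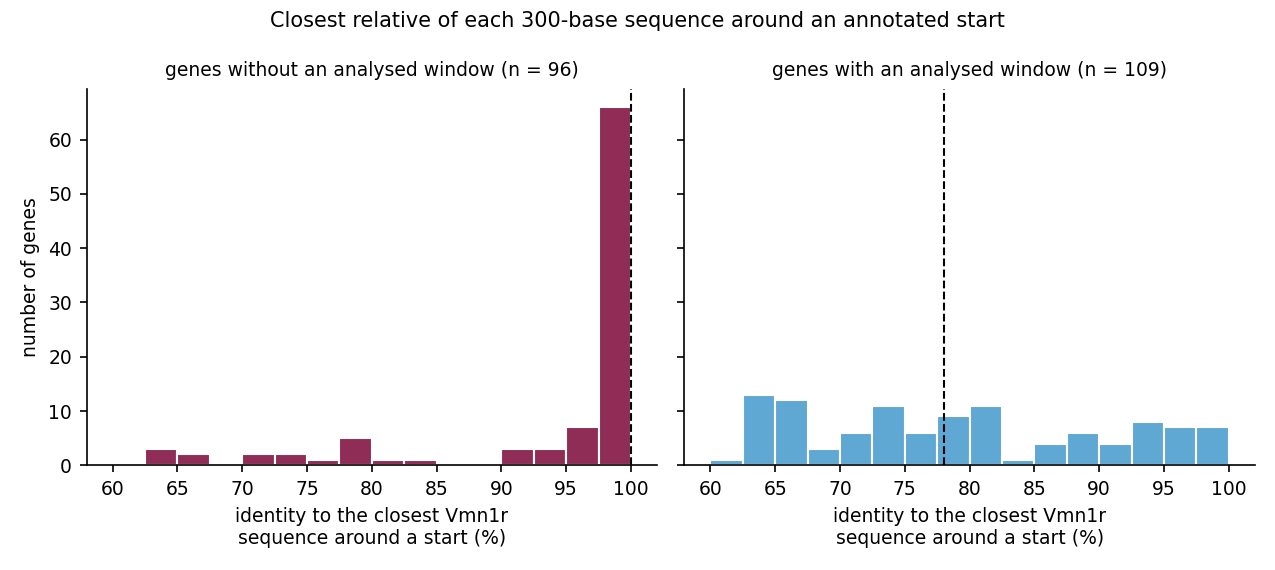
Identity of each Vmn1r start sequence (300 bases) to its closest relative in the family, in percent on the horizontal axis, and number of genes on the vertical axis, for genes without an analysed window (n = 96) and with one (n = 109); dashed lines are medians, 100% and 78.0%. The genes without a window pile up at 95% or more, while those with a window spread from 62 to 100%.

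Among all 205 start sequences, 180 had a start codon at the annotated start, so most of these annotations begin at the coding sequence and the transcription start may lie further upstream. Short motifs were searched on both strands. TATAAA was in 87 Vmn1r start sequences (42.4%), against 13.6% of all 32851 start sequences of the annotation. CCCNNGGG was in 1 (0.488%), that of Vmn1r180, against 13.7% of all. TAATTA was in 15 (7.32%), against 5.29%, and the HindIII site AAGCTT also in 15 (7.32%), against 7.46%. Of the 205 sequences, 42.4% had a relative at 95% or more identity, so matches in near copies are not independent. Shares were not matched for base composition. A match describes the letters in this stretch and is not evidence of a bound site.

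Vmn1r windows had fewer contacts than the median window and far fewer than Olfr windows. Their median count was 477 on 129, with quartiles of 152.5 and 1054, and 350 on Cas, with quartiles of 108.5 and 836. By comparison, over all windows the medians were 565 on 129 and 405 on Cas. Windows of Vmn2r genes, the other vomeronasal receptor family, had medians of 191 on 129 and 134 on Cas, Olfr windows had 2302 on 129 and 1573 on Cas, and windows without a coding gene had 324 on 129 and 227 on Cas. Vmn1r windows therefore lay between Vmn2r and Olfr windows. Low counts were frequent: 25 of the 99 windows (25.3%) had a summed count under 250, against 8.68% of all windows, while 45 (45.5%) reached 1000, against 49.1%. Baits sit at promoters, so counts between windows follow the number of captured fragments as well as contacts.

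The 99 loci spanned a wide range of counts. Vmn1r85 (V1rj3 in the older naming), whose protein is known to respond to sulphated steroids, had the highest count, 3494 on 129 and 2217 on Cas, in a window it shares with the zinc finger gene Mzf1. Its relative Vmn1r89 (V1rj2) had 207 on 129 and 174 on Cas in a window without another gene. The lowest count above 0 was that of Vmn1r173, 7 on 129 and 36 on Cas. The count was 0 on both alleles for Vmn1r261, Vmn1r122 and Vmn1r238, which allows up to 3 counts on each allele by counting error alone. Those 3 loci were not tested, while the 96 loci that reached a summed count of 10 were.

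Counts also followed how distinct the start sequence was. The 36 loci whose genes had a closest relative under 75% identical had a median of 1000 contacts on 129 and 670.5 on Cas. In the 28 loci between 75 and 90% the medians were 426.5 on 129 and 349.5 on Cas, and in the 23 loci at 90% or more they were 167 on 129 and 135 on Cas. A further 12 loci had no matched start sequence. The loci of each class share clusters and baits, so the order is a description without a test, and the part of sequence identity in the counts was not tested.

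The family as a whole had a 129 share close to that of all windows. Summed over the 99 windows, 75335 interactions were on 129 and 55045 on Cas, which put 57.8% on 129 (exact Clopper-Pearson 95% interval 57.5 to 58.1%), against 57.6% for all windows. In raw counts 83 of the 96 tested loci had more on 129, 12 had more on Cas and 1 had equal counts. Because 129 exceeds Cas throughout, each log2 ratio of 129 to Cas below is given after subtracting the autosomal median of 0.45, with 1 added to both counts. On this centred scale the median Vmn1r locus was at 0.05, against 0.00 over all windows, with 54 loci above 0 and 42 below.

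The loci differed from each other more widely than windows in general and less widely than Vmn2r windows. The SD of the centred log2 ratio was 0.61 over Vmn1r loci, 0.91 over Vmn2r windows, 0.49 over Olfr windows and 0.45 over all windows. Part of this width went with low counts: at a summed count of 10 to under 250 the SD was 1.04 in 22 Vmn1r loci and 0.90 in all such windows, at 250 to under 1000 it was 0.44 in 29 loci and 0.41, and at 1000 or more it was 0.39 in 45 loci and 0.36. A ratio of 2-fold or more was seen in 5 of 96 loci (5.21%), Vmn1r59, Vmn1r173, Vmn1r4 and Vmn1r188 towards Cas and Vmn1r61 towards 129, against 3.32% of all windows and 2.15% of all coding loci. The share was 19.7% for Vmn2r windows and 4.34% for Olfr windows.

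**Figure D2:**
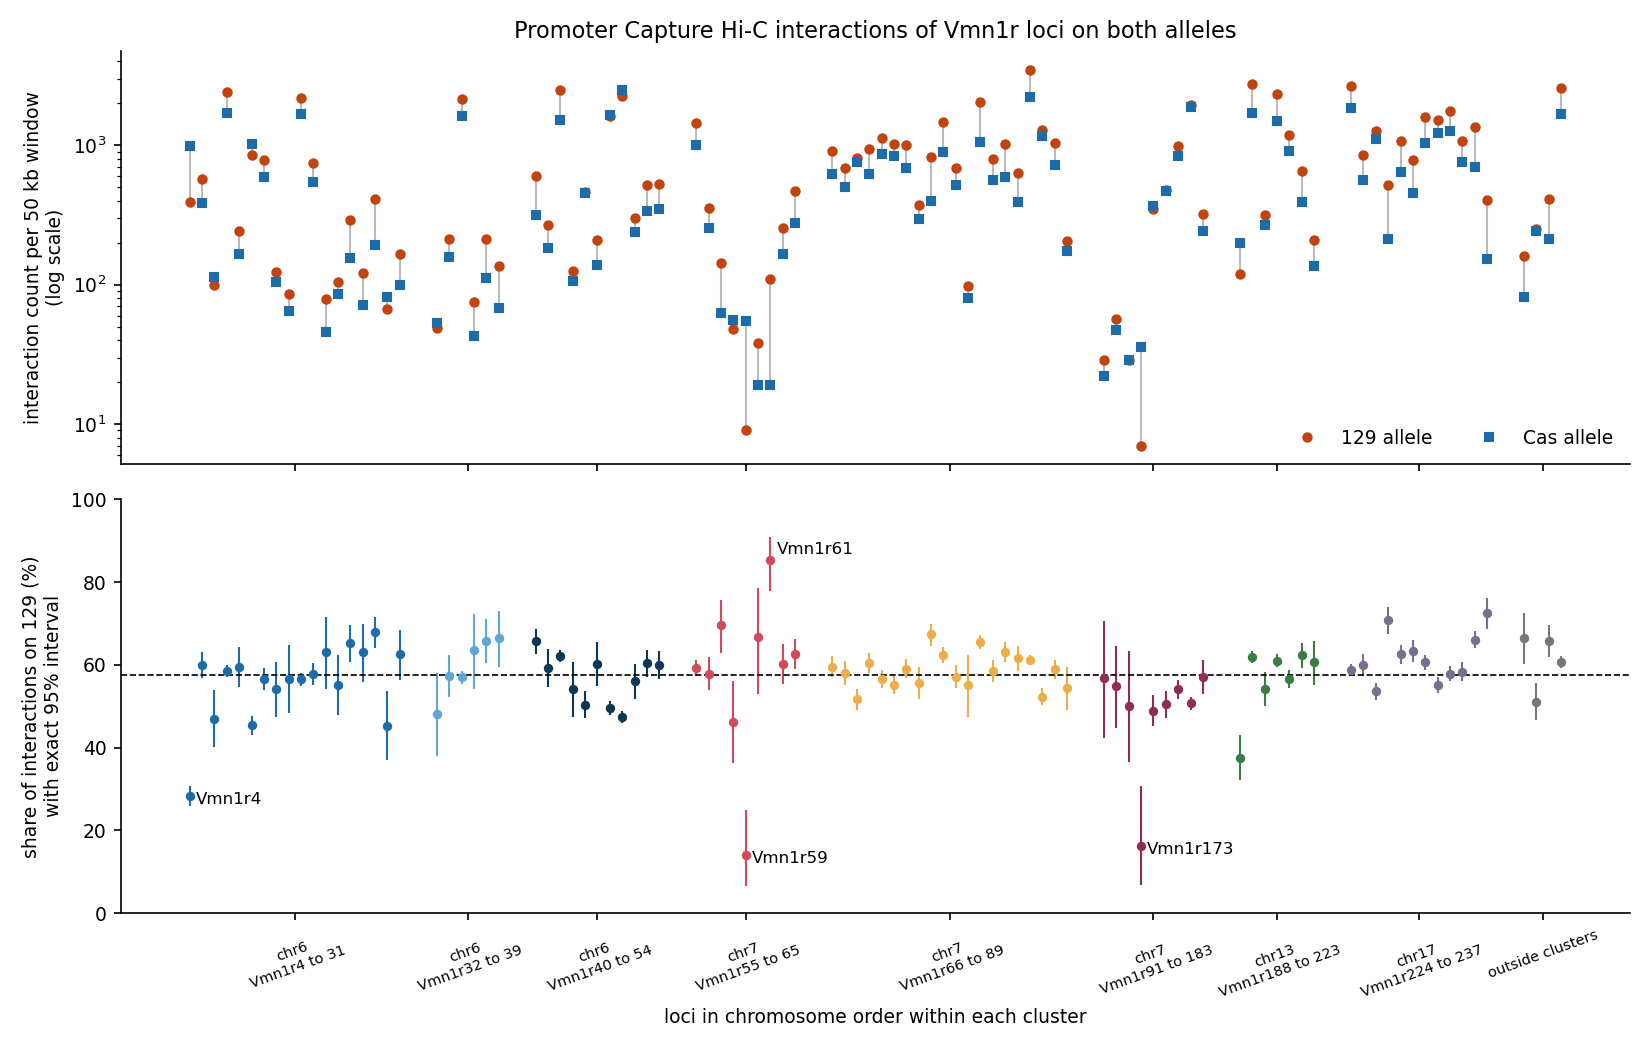
The 96 tested Vmn1r loci in genome order, grouped by cluster along the horizontal axis: the upper panel plots the interaction count on 129 and on Cas (log scale) and the lower panel the 129 share in percent with its exact 95% interval, the dashed line being the autosomal share of 57.6%. Most shares lie near the line, while Vmn1r4, Vmn1r59 and Vmn1r173 lie far below it and Vmn1r61 far above.

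Few loci had a ratio beyond the spread of windows. A two-sided beta-binomial test was made against the autosomal 129 share, with the overdispersion of the share fitted in 10 classes of summed count over all 15097 tested coding loci and with Benjamini-Hochberg adjustment at 0.05. It called 0 of the 96 Vmn1r loci higher on 129, against a background of 0.868% of coding loci, and 2 higher on Cas, against 0.272%. In both directions together 2.08% of Vmn1r loci and 1.14% of coding loci were called. Among coding loci with a summed count under 1000 the share was 2.17%, and 2.36% for those of 1 window. The 2 called Vmn1r loci had summed counts of 64 and 43, while 45 of the 96 reached 1000. At an unadjusted p under 0.05 there were 1 Vmn1r locus towards 129 and 4 towards Cas, or 5.21% of the 96, against 5.96% of all coding loci (513 towards 129 and 386 towards Cas). A binomial test, which ignores the spread between loci and calls 67.2% of coding loci, called 28 towards 129 and 20 towards Cas. The same beta-binomial test fitted over all 43762 tested windows, of which 0.697% were called, gave 0 Vmn1r windows towards 129, against 0.546% of windows, and 2 towards Cas, against 0.151%. The binomial test over windows called 51.4% of them. Vmn1r59 was called in both fits, Vmn1r173 only over loci and the window of Vmn1r4 only over windows. With 2 calls, the count for Cas says little of the family.

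Vmn1r59 (chromosome 7, window 5450001 to 5500000) had 9 interactions on 129 and 55 on Cas. Its 129 share was 14.1% (exact 95% interval 6.64 to 25.0%) and its centred log2 ratio -2.94. In the beta-binomial test its adjusted p was 0.00512 over loci and 0.0436 over windows, and under the alternatives of the test over loci it ran from 6.08e-12 to 0.0193. Over windows it was not called when the overdispersion was estimated by moments. The window also holds Vmn2r28, a gene of the other receptor family, so the count belongs to both genes.

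The windows beside Vmn1r59 leaned less towards Cas or leaned towards 129. Vmn1r58, one window before it, had 48 interactions on 129 and 56 on Cas, and Vmn1r57, further upstream, had 144 on 129 and 63 on Cas. After it, Vmn1r60 had 38 on 129 and 19 on Cas, and a window without a coding gene had 47 on 129 and 15 on Cas. The centred log2 ratio was -0.67 at Vmn1r58 and 0.51 at Vmn1r60, so it changed sign in the window after Vmn1r59. Vmn1r61 (window 5600001 to 5650000) followed with 110 on 129 and 19 on Cas. Its 129 share was 85.3% (78.0 to 90.9%), with a centred log2 ratio of 2.02. It was not called: in the beta-binomial test its adjusted p was 0.113 over loci and 0.486 over windows, although a single overdispersion for all loci gave 0.00141. The genes of Vmn1r59, Vmn1r60 and Vmn1r61, whose start sequences are given above, thus had unlike allelic counts within 0.2 Mb. The sources used here do not say how reads of such close copies were assigned to a position or an allele, and the part of that step in these counts was not tested.

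Vmn1r173 (window 23700001 to 23750000 of chromosome 7, no other coding gene) had 7 interactions on 129 and 36 on Cas. Its 129 share was 16.3% (6.81 to 30.7%), with a centred log2 ratio of -2.66. Its adjusted p in the beta-binomial test was 0.0337 over loci but 0.159 over windows, and 0.0811 over loci with the overdispersion estimated by moments. Its near copy Vmn1r174, in the next window, had 348 interactions on 129 and 364 on Cas and a centred log2 ratio of -0.52. The windows before it also had near even raw counts, 29 on 129 and 29 on Cas for Vmn1r172 and 57 on 129 and 47 on Cas for Vmn1r170 and Vmn1r171. The skew of Vmn1r173 rests on 43 interactions in all.

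Vmn1r4 (V1rc21; chromosome 6, window 56900001 to 56950000) had the strongest skew among loci with a summed count of 1000 or more, with 390 interactions on 129 and 988 on Cas. The 129 share was 28.3% (25.9 to 30.8%) and the centred log2 ratio -1.79. The adjusted p in the beta-binomial test was 1.92e-04 over windows and 0.0690 over loci, and 0.0340 over loci when the count minimum was 50. The window holds most of the annotated gene body, and the gene shares it with the nucleotidase gene Nt5c3. The RefSeq start sequence of Vmn1r4 (56956263 to 56956562, plus strand) lies in the next window, which was not analysed here. The window before, which holds Nt5c3 and Fkbp9 without a Vmn1r gene, had 696 on 129 and 568 on Cas, and the next analysed window, with Vmn1r6, Vmn1r7 and Vmn1r8, had 574 on 129 and 383 on Cas.

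Other loci at the ends of the ranking were not called. Towards Cas, Vmn1r188, at the edge of the chromosome 13 cluster, had 119 on 129 and 199 on Cas (centred log2 -1.19). Vmn1r13 and Vmn1r14, in 1 window, had 857 on 129 and 1029 on Cas (-0.72), Vmn1r30 had 67 on 129 and 81 on Cas (-0.72) and Vmn1r9 had 100 on 129 and 113 on Cas (-0.63). Towards 129, Vmn1r237 (V1rf3) had 406 on 129 and 154 on Cas (0.94) and Vmn1r227 (V1re6) had 519 on 129 and 214 on Cas (0.82). Both lie in the chromosome 17 cluster, and each had a 129 share above 70%. Vmn1r29 had 410 on 129 and 194 on Cas (0.62), Vmn1r74 had 828 on 129 and 401 on Cas (0.59), and Vmn1r39 (135 on 129 and 68 on Cas) and Vmn1r90 (161 on 129 and 81 on Cas) both stood at 0.53.

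**Figure D3:**
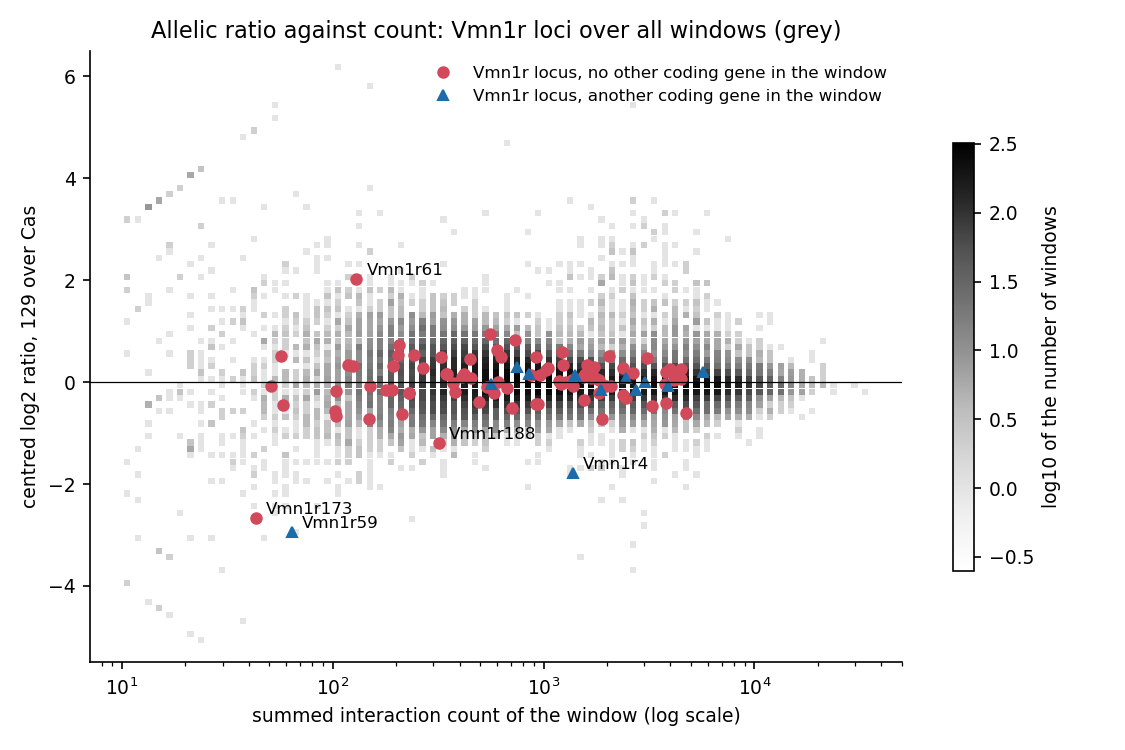
Centred log2 ratio of 129 to Cas (vertical axis) against summed count (horizontal axis, log scale) for all tested windows in grey and for Vmn1r loci in colour, circles without and triangles with another coding gene in the window. The spread narrows as the count grows; Vmn1r59, Vmn1r173 and Vmn1r61 lie at summed counts under 250 and Vmn1r4 at 1378.

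Read by cluster, defined as runs of 3 or more genes with under 1 Mb between neighbours, 221 genes fell into 8 clusters and 10 lay outside. In 5 of the 8 clusters the 129 share was above the autosomal 57.6%. On chromosome 6, Vmn1r4 to Vmn1r31 (56923914 to 58472878) held 9762 interactions from 129 and 8124 from Cas over 18 windows, or 54.6% on 129 (53.9 to 55.3%), and 56.8% with the windows shared with other coding genes left out, that of Vmn1r4 among them. Vmn1r32 to Vmn1r39 had 2830 on 129 and 2049 on Cas over 6 windows (58.0%, 56.6 to 59.4%). Vmn1r40 to Vmn1r54 had 9367 on 129 and 7775 on Cas over 11 windows (54.6%, 53.9 to 55.4%). The last cluster holds the V1ra and V1rb genes, whose joint deletion in mice is known to change sexual and maternal behaviour.

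Within the V1ra and V1rb cluster the richest windows leaned in different directions. Vmn1r50 and Vmn1r51 (V1rb1 and V1ra1), in 1 window, had 2255 on 129 and 2498 on Cas, so that 129 held 47.4% (46.0 to 48.9%). Vmn1r49 (V1rb2), whose protein is known to respond to the urinary ketone heptanone, had 1612 on 129 and 1641 on Cas. Vmn1r43 and Vmn1r44, between these in count, had 2484 on 129 and 1510 on Cas (62.2% on 129). In raw counts the other 8 windows of the cluster had more on 129 than on Cas, the closest to even being Vmn1r46 (V1rb8) with 463 on 129 and 456 on Cas. On the centred scale Vmn1r46 stood at -0.43, and 6 of the 11 windows of the cluster were above 0. None of these was called.

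The first clusters along chromosome 7 and those of chromosomes 13 and 17 lay above the autosomal share. Vmn1r55 to Vmn1r65 had 2877 on 129 and 1914 on Cas over 9 windows (60.1%, 58.7 to 61.4%) and Vmn1r66 to Vmn1r89 had 20484 on 129 and 13961 on Cas over 20 windows (59.5%, 58.95 to 59.99%). The chromosome 13 cluster, Vmn1r188 to Vmn1r223, had 7565 on 129 and 5089 on Cas over 7 windows (59.8%, 58.9 to 60.6%). The chromosome 17 cluster, Vmn1r224 to Vmn1r237, had 14842 on 129 and 9987 on Cas over 12 windows (59.8%, 59.2 to 60.4%), and 10 of its 12 loci were above 0 on the centred scale. Windows within 500 kb on either side had 58.3% for Vmn1r55 to Vmn1r65 and 60.8% for Vmn1r66 to Vmn1r89. Those beside the clusters of chromosomes 13 and 17 had 58.95% and 57.1%. Over whole chromosomes the share was 57.5% on chromosome 7, 58.5% on chromosome 13 and 58.4% on chromosome 17. Windows beside these clusters were thus also above the autosomal share, except on chromosome 17, where they lay below it. The share of the whole chromosome was above it on chromosomes 13 and 17 and close to it on chromosome 7.

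In the windows that could be counted, the cluster with most genes had the lowest 129 share. Vmn1r91 to Vmn1r183 (chromosome 7, 20101158 to 24055691) holds 86 genes, of which 14 had an analysed window, in 10 windows. Its windows gave 4194 interactions for 129 and 3931 for Cas, or 51.6% on 129 (50.5 to 52.7%), and none of its 9 tested loci was above 0 (median centred log2 -0.41). Its richest locus, Vmn1r180 and Vmn1r181, had 1936 on 129 and 1884 on Cas. All 9 tested loci lay between 23500001 and 24100000, so these values describe the far end of the cluster. The remaining receptor window, that of Vmn1r122, had 0 on both alleles. The 18 windows within 500 kb on either side of the whole cluster also lay low, with a 129 share of 55.5% and a median of -0.29. Those before 20101158 lie far from the tested loci, and the sides were not read apart.

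Cluster intervals cover counting error only, and neighbouring windows can count the same interactions. The clusters themselves were not tested. Regions of 1 Mb were tested instead, and they also hold windows outside the clusters. On chromosome 6, the regions over Vmn1r40 to Vmn1r54 held 5 and 6 Vmn1r windows among 20 each. The 129 shares of those regions were 59.51% and 56.15%, while that of the cluster was 54.6%. In the beta-binomial test over 2368 regions of 1 Mb, 0.169% were called. Of the 22 regions with Vmn1r windows 0 were called, and 0 had an unadjusted p under 0.05, against 6.46% of all regions. The binomial test, which called 82% of regions, called 19. Their 129 shares ran from 52.0%, at 23000001 to 24000000 of chromosome 7, to 66.0%, at 14000001 to 15000000 of the same chromosome, within the range of 34.4 to 85.3% over all regions. The region at 66.0% held 1 Vmn1r window among 20, that of Vmn1r90, with 161 on 129 and 81 on Cas. The whole region had 3091 on 129 and 1593 on Cas, of which the window of Sult2a8 held 732 on 129 and 72 on Cas.

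Grouped by the older family names, which 127 genes carry, the shares ran from 52.3% for V1rk, a single window, to 62.1% for V1rg. Among the families of chromosome 6 the 129 share was 55.9% for V1ra (8 windows), 54.0% for V1rb (6) and 55.0% for V1rc (21). It was 54.6% for V1rd (14 windows of chromosome 7), higher for V1rg on the same chromosome (8847 on 129 and 5410 on Cas in 9 windows) and 59.1% for V1re (12, chromosomes 7 and 17). The V1rf share was 61.4% (4 windows, chromosome 17), that of V1rh 60.4% (6, chromosome 13) and that of V1ri 60.5% (3, chromosome 13). Families share windows and position, so these shares are not independent of the cluster values.

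The interaction distance was longer on 129 than on Cas at most Vmn1r loci. The table gives 1 distance per window and allele, and the sources used here do not say whether it is a mean or a median of the interactions. In the 94 loci where both alleles reached 10 interactions, the median was 257.5 kb for 129 and 200.5 kb for Cas. In all such windows it was 348 kb for 129 and 347.5 kb for Cas. It was longer on 129 at 64 loci (68.1%), against a background of 48.7% of windows, and longer on Cas at 30 (31.9%), against 49.4%. The median log2 ratio of the distances was 0.22, against 0 over all windows. Olfr windows also leaned to longer 129 distances, with 256 of 438 longer on 129 and 171 longer on Cas (median log2 0.05). Vmn2r windows did not, with 52 of 108 longer on 129 and 56 longer on Cas (median log2 -0.02). Neighbouring loci share interactions, so no test was made.

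The lean towards longer 129 distances was seen in most clusters. It held for 10 of 11 loci in Vmn1r40 to Vmn1r54, for 7 of 8 in Vmn1r55 to Vmn1r65, for 12 of 18 in Vmn1r4 to Vmn1r31 and for 6 of 8 in Vmn1r91 to Vmn1r183. It held for 4 of 6 in Vmn1r32 to Vmn1r39 and for 5 of 7 in the chromosome 13 cluster, although the median distance in both was longer on Cas. The medians were 290 kb on 129 and 399 kb on Cas in the former, and 110 kb on 129 and 127 kb on Cas in the latter. The lean held for 7 of 12 in the chromosome 17 cluster and, as the exception, for 9 of 20 in Vmn1r66 to Vmn1r89. Leaving out each of chromosomes 6, 7, 13 and 17 in turn gave 64.4 to 70.9%. Among the 45 loci with a summed count of 1000 or more it held for 31, so it was also seen at high counts.

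Single loci differed by up to several fold. A distance 2-fold or more longer on 129 was found at 11 loci (11.7%), against 8.37% of all windows, and 2-fold or more longer on Cas at 5 (5.32%), against 8.73%. Vmn1r57 had 684 kb on 129 and 78.5 kb on Cas (log2 3.12), Vmn1r50 and Vmn1r51 had 218 kb on 129 and 31 kb on Cas (2.81), and Vmn1r174 had 3906 kb on 129 and 712 kb on Cas (2.46). Vmn1r10 and Vmn1r11 had 81 kb on 129 and 15 kb on Cas (2.43). Contacts of these loci reached further on 129. In the other direction, Vmn1r12, in the window next to Vmn1r10 and Vmn1r11, had 60 kb on 129 and 336 kb on Cas (-2.49), and Vmn1r78, Vmn1r79 and Vmn1r80 had 17 kb on 129 and 44 kb on Cas (-1.37). Vmn1r33 and Vmn1r34 had 274 kb on 129 and 702.5 kb on Cas (-1.36).

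**Figure D4:**
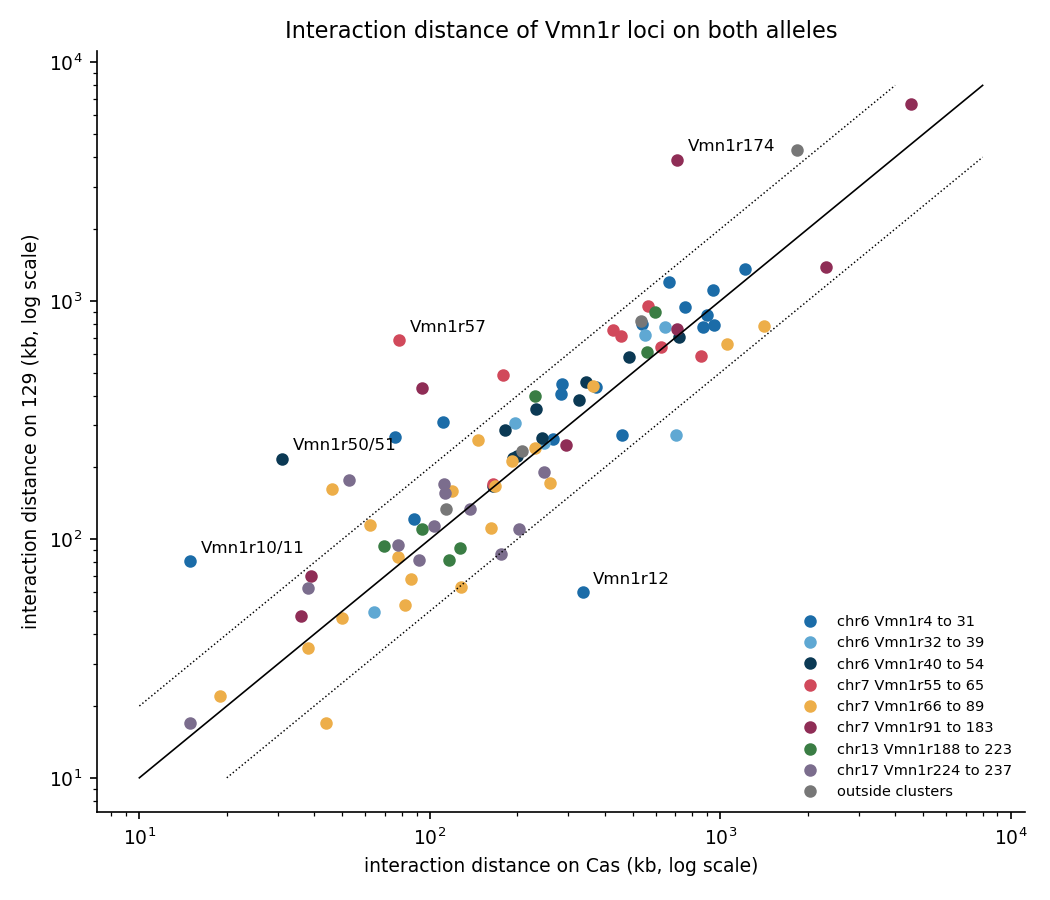
Interaction distance on 129 (vertical axis, kb, log scale) against that on Cas (horizontal axis, kb, log scale) for the 94 Vmn1r loci with 10 or more interactions on each allele, with the line of equality and dotted lines at 2-fold. More points lie above the line (64) than below it (30), and 16 lie outside the dotted lines.

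Count ratios and distance ratios were only weakly related. Across the 94 loci the centred count ratio and the distance ratio had a Pearson r of -0.233 and a Spearman rho of -0.185, against -0.0997 and -0.0623 over all windows. The points share libraries and neighbours, so this is a description.

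Genes that vomeronasal neurons use for receptor signalling or identity were described next to the receptors. The list was chosen with earlier results of these data known, so its calls are a description and not a result about the pathway. Of 24 listed genes 22 had a tested locus, 1 was called higher on 129 and 0 higher on Cas, against backgrounds of 0.868% and 0.272% of coding loci, and the median centred log2 ratio was 0.01, against -0.03 over all coding loci. The called gene was Kcnj3, a subunit of a potassium channel opened by G proteins, with 4892 interactions on 129 and 1066 on Cas (82.1% on 129, centred log2 1.74, adjusted p = 6.68e-05 in the beta-binomial test). Its contacts had a distance of 207.3 kb for 129 and 7028 kb for Cas. Gnai2, the G protein subunit coupled to these receptors, had 2296 on 129 and 2992 on Cas (43.4%, centred log2 -0.83) and was not called, with an adjusted p of 0.304 in the same test. Trpc2, the channel of the pathway, had 1076 on 129 and 894 on Cas (54.6%).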

How the data were processed

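Promoter Capture Hi-C counts come from 2 samples of 1 group. The deposited columns hold raw interaction counts and a distance for each allele in windows of 50 kb. Per the submitters' processing notes, Bowtie2 and mm10 were used; for read assignment to alleles, filters, duplicate removal and pooling, the sources used here give no method. The labels do not state whether the replicates were separate cultures. Interactions may be counted at both ends, and mapping can favour 129, so intervals and floors cover counting error only. Counts summed to 50842396 on 129 and 37470557 on Cas.

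Genes were placed by RefSeq GRCm38.p6 positions; a gene counts in every window its body overlaps, without regard to strand. Start sequences were aligned globally (match 1, mismatch -1, gap opening -2, extension -0.5), in place of protein identity, which was not used here. Tests were the two-sided beta-binomial test by deciles of summed count (minimum 10), with Benjamini-Hochberg adjustment. Regions of 1 Mb needed a count of 50 and 3 windows. The test was also run on window counts simulated from the same fitted model, which cannot show whether that model suits these data. Distances, clusters and counts had no test. Named loci were those called, the 8 largest ratios per direction (count 20 or more), the 4 largest distance ratios per direction, the highest and lowest counts, loci at 0 and the richest locus of each cluster; neighbouring windows and some relatives were named after their values were seen. Members, lists and rules were chosen with earlier results of these data known. Alternatives were other tests, overdispersions, null shares, minimums, thresholds, pseudocounts, centres and window sets. The tools were Python 3.11.15 with biopython 1.88, numba 0.67.0, scipy 1.17.1, numpy 2.4.6, matplotlib 3.10.9 and pandas 2.3.3.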

Additional observations from a re-analysis of the deposited data

How the results depend on the processing

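No paired analysis was possible because the columns pool both samples, and for the same reason no replicate could be left out. The exact binomial test raised the calls to 28 towards 129 and 20 towards Cas, over loci and over windows alike. A single overdispersion gave 1 call towards 129, Vmn1r61, and 3 towards Cas, over loci and windows. Of the 2 loci called towards Cas, 1, Vmn1r59, was called with overdispersion by moments, at a threshold of 0.01 and with only the window of the annotated start, and 1, Vmn1r173, among loci without another coding gene. Of the 2 windows, 1, that of Vmn1r4, was called with overdispersion by moments and at 0.01, and 0 were left without windows shared with another coding gene. At a count minimum of 50 the loci called towards Cas were Vmn1r59 and Vmn1r4, since Vmn1r173 was then not tested. The median of window shares was 58.6% on 129, against 57.8% of summed counts. The number of clusters above the autosomal share was 5 of 8, and 6 of 10 with a gap of 0.5 Mb. The median distance ratio (log2 0.22) was 0.17 with the window of the annotated start and 0.23 in loci without another coding gene, the last chosen after seeing the data. Of 46 recomputed values that answer a comparison 32 kept to the limits set for a change, 14 moved and 0 reversed. Counts under 250 limit single loci most. In the lowest decile of windows, with counts of 10 to 274, the fitted spread of the 129 share had an SD of 10.9 percentage points. That value comes from the overdispersion and leaves out counting error. The loci test puts counts of 10 to 1855 in its lowest class, and the window test counts of 10 to 274. The part of this in their different calls was not tested.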

Other observations

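Near Vmn1r90, a receptor gene outside the clusters, the window of the sulfotransferase gene Sult2a8 (chromosome 7, 14400001 to 14450000) held 732 interactions from 129 and 72 from Cas, with a centred log2 ratio of 2.88 with an adjusted p of 3.96e-10 in the beta-binomial test over windows. Vmn1r90 itself, 3 windows further on, had 161 on 129 and 81 on Cas, and the windows between them had 399 on 129 and 217 on Cas (Sult2a7) and 298 on 129 and 206 on Cas (no coding gene). In the 1 Mb region that holds them, which had the highest 129 share of the regions with Vmn1r windows, the window after Vmn1r90 leaned the other way, with 46 on 129 and 67 on Cas.

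Windows without a coding gene inside the clusters differed in contacts from the receptor windows, in a direction that varied between the 3 clusters holding 3 or more of them. Between Vmn1r4 and Vmn1r31 the 6 such windows had medians of 112.5 on 129 and 58 on Cas, and the receptor windows 267.5 on 129 and 160.5 on Cas. Between Vmn1r66 and Vmn1r89 the 11 such windows had 466 on 129 and 293 on Cas, and the receptor windows 929.5 on 129 and 618.5 on Cas. Between Vmn1r55 and Vmn1r65 the order turned, with 252 on 129 and 110 on Cas in 3 such windows and 144 on 129 and 63 on Cas in the receptor windows.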
